A study of Mus musculus with 24 samples.

Results

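The comparison described here set forelimb buds exposed to 10 µM tert-butylphenyl diphenyl phosphate (BPDP) for 24 h against forelimb buds kept for the same 24 h with the solvent DMSO alone. All libraries labelled with that dose and time and their controls were used, 4 against 4, which is 8 of the 24 libraries of the series. The comparison covers all 23936 genes of the deposited table for this pair, of 25844 genes in the joined tables. The limb buds came from CD1 mouse embryos at gestation day 13 and were grown as organ cultures. BPDP belongs to the organophosphate esters, chemicals added to plastics and other products as flame retardants and plasticizers. Poly-A RNA was sequenced from each library. The 4 libraries with 1 µM BPDP at 24 h, and the 4 with 10 µM and 4 with DMSO at 3 h, served as references for dose and time. The labels do not say whether replicates were separate litters, cultures or pools, or whether a replicate number marks a shared day, so the p-values rest on the spread among these libraries alone, which may be technical.

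At this stage a forelimb bud holds condensing cartilage, dividing mesenchyme, early muscle, vessels, macrophages, ingrowing nerve and an ectodermal cover. In the cartilage, Indian hedgehog made by maturing chondrocytes signals to neighbouring cells, where its receptor Patched 1 and the transcription factor Gli1 are both readouts of the pathway. Cells that run short of amino acids, or that sense other stresses, slow general translation and raise the transcription factor ATF4, which switches on genes for amino acid uptake, amino acid synthesis and transfer RNA charging. This programme is called the integrated stress response. Entry into S phase and passage through mitosis each depend on a group of genes that are transcribed together in dividing cells.

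Total counts of the 8 libraries lay between 15726057 and 19972395. The first principal component of their log counts (29.8% of the variance) placed all 4 controls below all 4 treated libraries, and the second (23.1%) placed replicates 1 and 2 of both groups above replicates 3 and 4. Limb markers were present. Prrx1, a marker of limb mesenchyme, lay at 331, 435, 407 and 467 CPM (a gene's count as a share of the library total, scaled to 1000000) in controls 1 to 4 and at 387, 404, 441 and 444 CPM with 10 µM. Tbx5, which marks the forelimb, lay at 181, 259, 243 and 264 CPM in the controls and 256, 286, 252 and 266 CPM with 10 µM, and the hindlimb gene Tbx4 at or below 23.3 CPM in all 8. None of these markers, nor the hindlimb gene Pitx1, passed the test between the groups. Libraries also differed in ways their labels do not give. The summed level of 26 glycolysis and hypoxia genes was 11000 and 7453 CPM in controls 1 and 4, and between 3732 and 4579 CPM in the other 6 libraries. Xist, transcribed in cells with 2 X chromosomes, had no read in 10 µM replicate 3 and lay between 139 and 693 CPM in the other 7. The Y chromosome genes Ddx3y (25.2 to 69.2 CPM) and Eif2s3y (15.1 to 43 CPM) had reads in all 8. Xist and Y chromosome reads thus occurred together in 7 libraries.

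Differences were tested with edgeR's quasi-likelihood test, with the replicate number as a block, over 15508 genes with enough reads. Fold changes are given on the log2 scale throughout, as values in brackets or as the size of a rise or fall, and in pairs of CPM values joined by "against" the controls come first. A gene was called when its Benjamini-Hochberg adjusted p was under 0.05. In all 1645 genes (10.6%) were called, 771 higher (4.97%) and 874 lower (5.64%) with 10 µM. Of these, 69 rose and 235 fell by a factor of at least 2, and 14 rose and 60 fell by a factor of at least 4. The median size of a called change was 0.55 on the log2 scale, and the median over all 15508 genes was -0.01. The 2 groups did not overlap in CPM for 2093 genes (13.5%), and 1193 genes were both called and without overlap. All 4 same-numbered pairs moved the same way for 1580 of the 1645 called genes. The calls came from a fit with these numbers as block, so this count is not independent support. In tissue made of many cell types, fewer cells of a type and less RNA per cell cannot be told apart. Without the block the count was 963. Within replicates 1 and 2 alone it was 6, within replicates 3 and 4 alone 953, and with replicates 1 and 4 of both groups left out 4. These subset fits had 2 libraries a group and also no block. Leaving out 10 µM or control replicate 3 gave 701 or 693 genes, and leaving out replicate 4 gave 786 or 788. In this fit a library left without its same-numbered partner adds almost nothing, so leaving out either one of a pair gives nearly the same count. Lists in which at most 4 genes were called in a direction held between 0 and 7 such genes without 1 library.

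**Figure D1:**
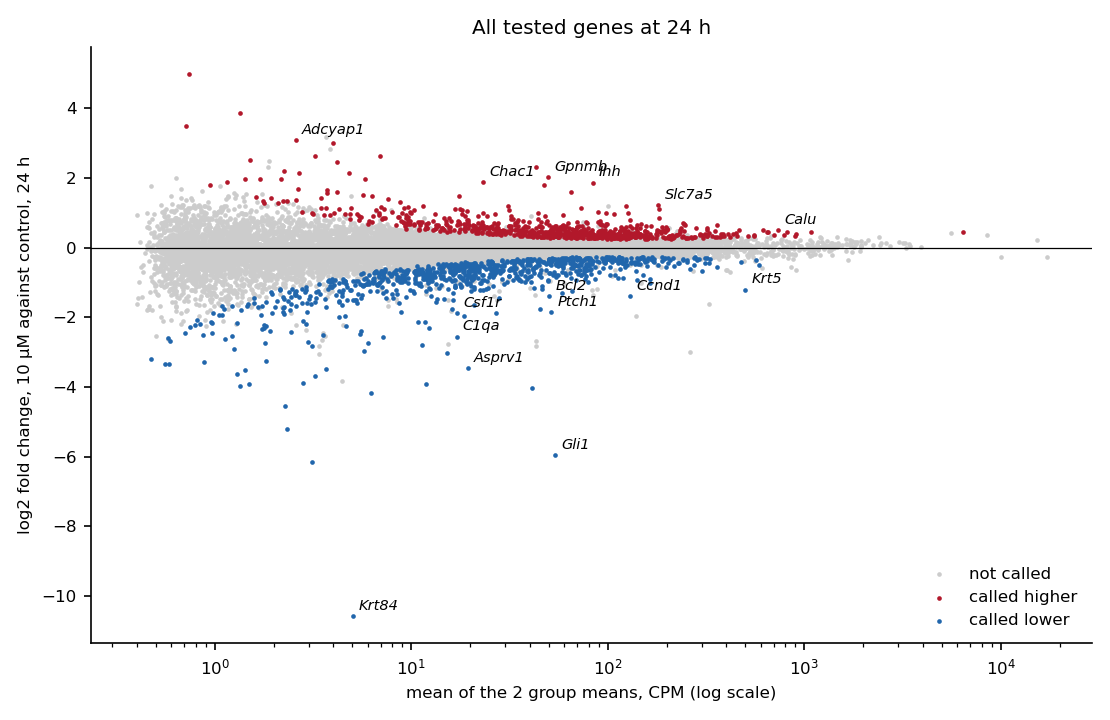
Each point is 1 of the 15508 tested genes, with the mean of the 2 group means in CPM on the x axis (log scale) and the fitted log2 fold change of 10 µM BPDP against control at 24 h on the y axis. Red points were called higher (771) and blue points lower (874), and changes past a factor of 4 were more often downward (60 against 14 genes). The fitted value of Krt84, which had no read with 10 µM, depends on the prior count.

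The lists of replication, mitotic kinase, kinetochore and spindle genes held the largest shares called lower of all lists. All lists were chosen with earlier results of these data known, so this ranking is not an independent test. Of 33 genes of the replication origin and fork, all 33 had a lower fitted level with 10 µM, 28 were called lower and none was called higher, with a median log2 fold change of -0.63 against -0.01 for all genes. The largest falls were in Cdc6 (-1.23), which loads the replicative helicase, Cdc45 (-1.06), a part of that helicase, and Mcm5 (-0.99), one of its ring subunits. Mcm7, another ring subunit, lay at 124, 147, 136 and 144 CPM in the controls and at 88.3, 78, 74.3 and 78.7 CPM with 10 µM. No treated library reached the lowest control (log2 fold change -0.78, SE 0.082, adjusted p = 6.85e-05). Lig1, the ligase that joins replicated fragments, fell by a similar amount (-0.76). Of 19 genes of nucleotide synthesis 8 fell, among them Rrm2 (-1.09), a ribonucleotide reductase subunit, and Tyms (-0.97), thymidylate synthase.

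Mitotic genes fell to a similar degree. All 20 tested mitotic kinases and cyclins, all 21 kinetochore genes and all 22 genes of spindle motors and cytokinesis had a lower fitted level, and 16, 17 and 20 of them were called lower (medians -0.80, -0.80 and -0.79). Tpx2, a spindle assembly factor (chr2:152847964-152895321, plus strand, mm10), lay at 65.6, 60.5, 63.8 and 72 CPM in the controls and 32.9, 30.2, 35.5 and 36.8 CPM with 10 µM (log2 fold change -0.94, SE 0.088, adjusted p = 3.13e-05). The 2 groups were separated by more than 20 CPM. Plk1 (-1.04) and Aurkb (-1.03) are mitotic kinases, Ccnb1 (-0.91) codes for cyclin B1, Cenpk (-1.32) and Ndc80 (-1.03) for kinetochore proteins, and Kif15 (-1.05), Kif23 (-0.96) and Kif11 (-0.83) for motors that work on the spindle or the midbody. All of these were called lower, each with no overlap between the groups. Of 17 condensin and cohesin genes 9 fell (median -0.53). Of 22 genes of homologous recombination and the Fanconi pathway 13 fell (median -0.68), among them Fanca (-1.35) and Brca1 (-1.03), but only 7 or 8 were called when any library of replicates 2, 3 or 4 was left out.

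Among 11 D cyclins and CDK inhibitors 2 were called, both lower (18.2%, against 10.6% of all genes). Ccnd1, which codes for cyclin D1 of the G1 phase, fell further than any called gene of the replication, mitotic kinase, kinetochore and spindle lists. It lay at 152, 178, 202 and 219.5 CPM in controls 1 to 4 and 65.3, 70.8, 66 and 78.8 CPM with 10 µM (log2 fold change -1.4, SE 0.085, adjusted p = 6.74e-07). The highest treated library was far below the lowest control. Ccnd2, its relative, had 432, 548, 632 and 686 CPM in the controls and 449, 446, 489 and 476 CPM with 10 µM and did not pass (-0.27, adjusted p = 0.107). The CDK inhibitor gene Cdkn1a, a p53 target, also did not pass (-0.22, adjusted p = 0.0861). Of 22 ribosome biogenesis genes 3 were called lower (13.6%, median -0.05), and none of them was called without 10 µM or control replicate 3 or 4. The medians of the replication, kinase, kinetochore and spindle lists ranged between -0.57 and -0.86 within replicates 1 and 2, within replicates 3 and 4, and with replicates 1 and 4 of both groups left out.

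The promoters of these genes are shown because many of them hold the letters of known cell cycle elements. The sequences come from RefSeq promoters on GRCm38.p6, the mm10 build, 5′ to 3′ on the gene's strand, each 200 bases long from 170 bases before to 30 bases after the annotated start. Capitals mark the letters TTTGAA (or TTCAAA on the other strand), the cell cycle homology region of late cell cycle genes, and CCAAT (or ATTGG), the box bound by NF-Y. Among the 7 named spindle genes with a promoter entry, 3 held both elements in this window:
Kif23 (chr9:61946770-61946969, minus strand): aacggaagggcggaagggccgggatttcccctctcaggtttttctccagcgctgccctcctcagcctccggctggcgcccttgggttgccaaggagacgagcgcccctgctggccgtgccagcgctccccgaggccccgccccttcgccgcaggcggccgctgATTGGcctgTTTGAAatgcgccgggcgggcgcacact
Ckap2 (chr8:22185790-22185989, minus strand): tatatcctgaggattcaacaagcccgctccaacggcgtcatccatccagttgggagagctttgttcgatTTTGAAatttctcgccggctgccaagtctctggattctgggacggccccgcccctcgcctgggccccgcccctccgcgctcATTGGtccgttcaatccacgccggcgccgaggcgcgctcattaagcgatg
Kif11 (chr19:37376212-37376411, plus strand): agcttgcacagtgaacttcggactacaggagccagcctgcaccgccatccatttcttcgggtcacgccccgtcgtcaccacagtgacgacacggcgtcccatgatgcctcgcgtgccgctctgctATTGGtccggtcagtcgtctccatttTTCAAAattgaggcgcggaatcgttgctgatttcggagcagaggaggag
For the replication genes, capitals mark TTCCCGC (or GCGGGAA) and TTGGCGC (or GCGCCAA), 2 forms of the site bound by E2F factors, held in this window by 4 of the 7 named genes with an entry:
Cdc6 (chr11:98907981-98908180, plus strand): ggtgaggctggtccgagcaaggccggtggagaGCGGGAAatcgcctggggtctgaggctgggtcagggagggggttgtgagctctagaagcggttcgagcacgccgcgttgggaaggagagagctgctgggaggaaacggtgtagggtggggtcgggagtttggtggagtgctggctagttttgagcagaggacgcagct
Mcm5 (chr8:75109339-75109538, plus strand): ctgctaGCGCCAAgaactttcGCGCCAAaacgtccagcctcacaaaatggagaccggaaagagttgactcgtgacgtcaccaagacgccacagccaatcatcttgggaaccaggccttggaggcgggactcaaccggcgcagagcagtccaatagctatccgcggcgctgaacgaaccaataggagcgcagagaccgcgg
Mcm7 (chr5:138171854-138172053, minus strand): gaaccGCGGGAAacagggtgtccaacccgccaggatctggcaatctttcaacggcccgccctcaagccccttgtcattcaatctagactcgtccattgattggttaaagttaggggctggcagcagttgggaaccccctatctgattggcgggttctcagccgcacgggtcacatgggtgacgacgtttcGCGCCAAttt
Lig1 (chr7:13279095-13279294, plus strand): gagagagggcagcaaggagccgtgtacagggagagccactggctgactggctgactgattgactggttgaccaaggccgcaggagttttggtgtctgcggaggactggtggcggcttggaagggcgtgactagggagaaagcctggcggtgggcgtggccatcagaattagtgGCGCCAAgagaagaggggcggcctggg
Over the full 300-base promoters (250 bases before to 50 after the start), the cell cycle homology letters occurred in all 20 promoters of 18 called spindle genes, against 11.8% of the 14112 promoters of tested genes and 17.9% of all 32851 promoters. Both elements together occurred in 75% of the spindle promoters and 66.7% of the 12 promoters of called mitotic kinases and cyclins, against 4.78% of tested genes. Either E2F form occurred in 60% of the 25 promoters of called replication genes, against 11.4% of tested genes. A match says only that the letters are there, and no binding was measured.

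The integrated stress response held the largest share called higher among the lists, which were chosen with earlier results of these data known. Of 18 tested genes 13 rose and none fell (median log2 fold change 0.89). The summed level of the list was 1280 CPM in control 1 and between 727 and 871.5 CPM in controls 2 to 4. With 10 µM it lay between 1165 and 1522 CPM, so the sums overlapped through control 1. Chac1, which breaks down glutathione and is a direct ATF4 target (chr2:119351229-119354381, plus strand), lay at 9.77, 8.9, 9.72 and 10.8 CPM in the controls and 36.6, 22.5, 46.8 and 40.6 CPM with 10 µM (log2 fold change 1.88, SE 0.14, adjusted p = 3.54e-06). Treated replicate 2 was the lowest of its group and still above every control by a factor of 2 or more. Fgf21, a stress-induced hormone, rose by 2.14, Stc2, a secreted stress protein, by 1.2, Nupr1, a chromatin-linked stress protein, by 1.18, and the transcription factor genes Atf3 and Atf5 by 1.11 and 0.99. The transcript of Atf4 itself, whose activity is set mainly by translation, lay at 251, 215, 154 and 148 CPM in the controls and 304, 276, 329.6 and 272 CPM with 10 µM (0.67, adjusted p = 0.0105), a gene named after its values were seen. Cebpb, a partner of ATF4, did not pass (0.3, adjusted p = 0.248).

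Amino acid supply genes were higher as well. Of 20 amino acid transporters 10 rose and none fell (6 rose without the block; median 0.31). Slc7a5, the light chain of the large neutral amino acid exchanger (chr8:121881150-121907694, minus strand), lay at 100.4, 96.1, 128 and 109 CPM in the controls and 259.6, 184, 323 and 246 CPM with 10 µM (log2 fold change 1.22, SE 0.08, adjusted p = 1.33e-06). The lowest treated library, replicate 2, was above the highest control. Its heavy chain gene Slc3a2 rose by 1.11, the cationic amino acid transporters Slc7a1 and Slc7a3 by 1.0 and 1.48, the alanine, serine and cysteine transporter Slc1a4 by 1.14, and the cystine transporter Slc7a11 by 0.7, the last with an adjusted p = 0.228 without the block. The glutamine transporter Slc1a5 overlapped between the groups (28.7, 31.5, 24.4 and 26.4 CPM in the controls, 26.6, 26.3, 26.5 and 30.2 CPM with 10 µM) and did not pass (adjusted p = 0.996).

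Of 20 genes of amino acid and one-carbon synthesis 10 rose and none fell (median 0.32). Aldh1l2, a folate enzyme of mitochondria, lay at 17.7, 28.2, 20.2 and 18.8 CPM in the controls and 76.8, 54.6, 89 and 74.1 CPM with 10 µM (1.81, SE 0.18, adjusted p = 0.000585), the largest change of the list. Asns, asparagine synthetase, lay at 57.8, 69.2, 90.8 and 72.8 CPM in the controls and 148, 104, 168 and 148 CPM with 10 µM (0.98, adjusted p = 4.56e-05). Both genes were higher in each treated library than in any control. Mthfd2, a mitochondrial folate enzyme, rose by 1.03, Cth, which makes cysteine, by 1.01, and Psph, the last enzyme of serine synthesis, by 0.79, while Shmt2, which splits serine in mitochondria, did not pass (0.07, adjusted p = 0.601). Of 20 cytosolic aminoacyl-tRNA synthetases 11 rose and none fell (median 0.37, and 7 called without 10 µM or control replicate 4), led by Cars (0.6) for cysteine, Eprs (0.55) for glutamate and proline, and Aars (0.53) for alanine. Hars, for histidine, did not pass (-0.03, adjusted p = 0.894).

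In the promoters of these genes the letters TGATGCAA (or TTGCATCA) were looked for, an element bound by ATF4 with CEBP partners. They are in capitals in the same kind of 200-base window, which held them for 3 of the 8 named genes of the integrated stress response and 3 of the 5 named synthetase genes with an entry:
Fgf21 (chr7:45615461-45615660, minus strand): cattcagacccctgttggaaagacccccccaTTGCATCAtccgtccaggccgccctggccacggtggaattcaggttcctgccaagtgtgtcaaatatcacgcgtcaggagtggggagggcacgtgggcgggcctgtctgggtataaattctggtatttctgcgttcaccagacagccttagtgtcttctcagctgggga
Nupr1 (chr7:126625441-126625640, minus strand): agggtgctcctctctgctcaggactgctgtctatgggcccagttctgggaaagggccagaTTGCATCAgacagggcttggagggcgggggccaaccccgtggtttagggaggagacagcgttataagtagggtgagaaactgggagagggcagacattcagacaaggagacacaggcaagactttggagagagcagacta
Atf3 (chr1:191183304-191183503, minus strand): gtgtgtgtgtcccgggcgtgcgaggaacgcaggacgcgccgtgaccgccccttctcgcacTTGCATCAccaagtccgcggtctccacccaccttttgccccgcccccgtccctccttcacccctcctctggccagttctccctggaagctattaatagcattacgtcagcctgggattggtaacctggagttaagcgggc
Aars (chr8:111033672-111033871, plus strand): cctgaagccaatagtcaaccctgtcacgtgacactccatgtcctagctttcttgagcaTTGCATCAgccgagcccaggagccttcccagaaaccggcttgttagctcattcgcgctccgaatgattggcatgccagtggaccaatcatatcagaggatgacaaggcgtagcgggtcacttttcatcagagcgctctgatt
Yars (chr4:129189733-129189932, plus strand): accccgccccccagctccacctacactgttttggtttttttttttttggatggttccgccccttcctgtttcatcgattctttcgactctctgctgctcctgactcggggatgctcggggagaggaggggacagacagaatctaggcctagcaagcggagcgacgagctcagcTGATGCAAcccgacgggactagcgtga
Iars (chr13:49681960-49682159, plus strand): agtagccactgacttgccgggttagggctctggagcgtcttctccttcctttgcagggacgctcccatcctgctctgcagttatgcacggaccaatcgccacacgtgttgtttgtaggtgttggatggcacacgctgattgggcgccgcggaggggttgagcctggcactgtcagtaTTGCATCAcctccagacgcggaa
Over the 300-base promoters the element occurred in 33.3% of the 15 promoters of called stress response genes and 57.1% of the 7 promoters of called synthetases. In called amino acid transporters it occurred in 22.2% of 9 promoters, and in called genes of amino acid and one-carbon synthesis in 10% of 10. It occurred in 0.581% of the promoters of tested genes and 0.895% of all promoters. These shares rest on few promoters, and the genes were chosen as called.

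Beside the 10.6% of all genes that were called, the share was 13.3% of the unfolded protein list, 14.3% of NRF2 targets, 20% of the aryl hydrocarbon receptor list and 10% of p53 targets. Of 15 genes that respond to unfolded proteins in the endoplasmic reticulum 2 rose (median -0.02), and its main chaperone Hspa5 did not pass (708, 732, 649.8 and 722 CPM in the controls, 694, 648, 626 and 649 CPM with 10 µM, -0.09). Of 21 targets of NRF2, a transcription factor of the response to oxidants and electrophiles, 1 rose and 2 fell. The one that rose was Hmox1, heme oxygenase (52.5, 48.1, 49.1 and 44.3 against 64.9, 69.6, 88.2 and 65 CPM, 0.57, adjusted p = 0.0021), while Nqo1 did not pass (-0.23). Of 10 genes of the aryl hydrocarbon receptor and of xenobiotic metabolism 2 rose. Ahrr, the repressor of that receptor, lay at 3.1, 5.51, 2.15 and 3 CPM in the controls and 9.64, 9.1, 10.3 and 7.57 CPM with 10 µM (1.48, SE 0.24, adjusted p = 0.00157), while Cyp1a1, the classical target, spread from 0.753 to 13.7 CPM with 10 µM and from 3.74 to 19.9 CPM in the controls and did not pass. Of 20 p53 targets 1 rose and 1 fell (median 0.05), and Mdm2 did not pass (0.02). Of 21 immediate early genes 3 rose and 1 fell (19.05%), and of 14 heat shock genes 1 fell (7.14%).

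Within the Bcl2 family, which sets the threshold for cell death, 2 of 16 genes rose and 2 fell (25%, against 10.6% of all genes). Bcl2, the founding survival gene (chr1:106538178-106714274, minus strand), lay at 55.1, 69.2, 85.3 and 84.4 CPM in the controls and 27.6, 24.4, 28.8 and 28 CPM with 10 µM (log2 fold change -1.4, SE 0.10, adjusted p = 3.6e-06). The treated libraries held less than 29 CPM each and the controls more than 55 CPM each. Hrk, which opposes survival members of the family, was at low level and rose (0.877, 1.31, 0.717 and 1.05 against 5.58, 3.6, 4.64 and 3.75 CPM, 2.15, adjusted p = 0.00108). No measure of cell death itself was taken.

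**Figure D2:**
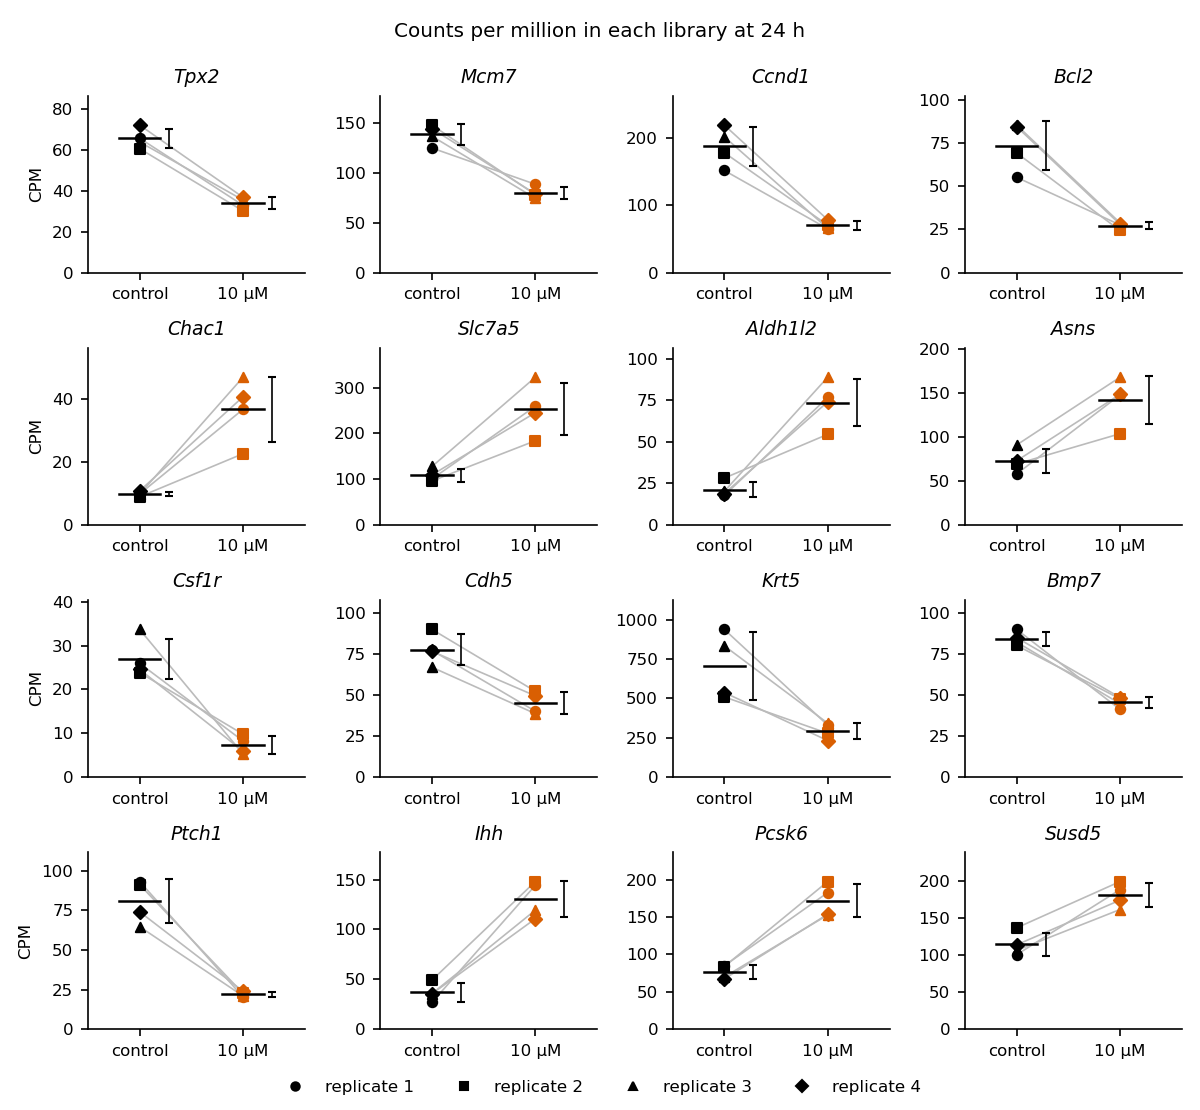
Each panel shows 1 gene, with CPM on the y axis (from 0) for the 4 control libraries (black) and the 4 libraries with 10 µM BPDP (orange) at 24 h. Symbols stand for replicates 1 to 4, grey lines join equal numbers, horizontal bars are means and the brackets beside them are 1 SD. In each panel of this selection the 2 groups do not overlap.

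In lipid metabolism, 12 of 24 cholesterol synthesis genes rose and none fell (median 0.39). Insig1, a sterol-regulated brake on the pathway, lay at 49.5, 75.2, 51.1 and 65.1 CPM in the controls and 91.2, 101, 94.3 and 97.3 CPM with 10 µM (0.71, adjusted p = 0.000181). Msmo1, a sterol oxidase, rose by 0.67. In both genes control 1 was the lowest and control 2 the highest of the controls. The count was 5 without 10 µM or control replicate 3 and 3 without replicate 4 of either. Of 10 genes of LXR and cholesterol efflux 2 fell (20%, against 10.6% of all genes, and 1 without the block). Among them was the sterol exporter Abcg1 (31.4, 18.8, 23.6 and 24 against 12.4, 7.75, 10.2 and 14.5 CPM, -1.13). The lysosome list had 7 of 24 higher (3 without the block, 2 without replicate 3 and 1 without replicate 4), with Lamp2, a membrane protein of lysosomes, at 239.9, 178, 177 and 187 CPM in the controls and 284, 298, 302 and 317 CPM with 10 µM (0.65). None of 26 glycolysis and hypoxia genes was called, although their median was -0.60 (2 had an unadjusted p under 0.05, and DESeq2 called none). That median was 0.23 with replicates 1 and 4 of both groups left out, and controls 1 and 4 are those that stood apart in this list. None of 21 genes of oxidative phosphorylation was called by edgeR or DESeq2 (median -0.10, with an unadjusted p under 0.05 for 7).

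Markers of several cell types fell. Of 23 macrophage genes 12 fell and none rose (median -1.01), and their summed level lay between 289.9 and 378.6 CPM in the controls and between 126.7 and 184.5 CPM with 10 µM. Csf1r, the receptor macrophages depend on, lay at 26, 23.9, 33.7 and 24.6 CPM in the controls and 8.24, 9.78, 5.25 and 5.91 CPM with 10 µM (-1.89, SE 0.21, adjusted p = 0.000341). The complement gene C1qa fell by 2.55 and the lysozyme gene Lyz2 fell by 1.65. Not every marker was called. Cd68, a lysosomal protein, lay at 24.7, 17.7, 19 and 16.7 CPM in the controls and 20.8, 21.1, 18.5 and 15.6 CPM with 10 µM (-0.02), and the mannose receptor Mrc1 did not pass (-0.46, adjusted p = 0.189). No treated library was at 0 for any of these 5 genes. Without 10 µM or control replicate 3 the count was 6, and without replicate 4 it was 7. Cpa3, a protease of mast cells, also fell (10.9, 11.2, 16.1 and 8.16 against 7.28, 5.56, 5.25 and 2.23 CPM, -1.23).

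Of 27 endothelial genes 13 fell and 1 rose (median -0.56; 9 fell without the block). Cdh5, the cadherin of vessel walls, lay at 77.3, 90.1, 67 and 76.7 CPM in the controls and 40.1, 52.3, 38.7 and 49.5 CPM with 10 µM (-0.77, SE 0.09, adjusted p = 0.00013). Flt1, a receptor for vascular growth factor, fell by 1.47. Aplnr, the apelin receptor (-1.05), and Esam, a junction protein (-0.84), were also called lower, whereas Tek (0.03) and Emcn (-0.11), which also mark vessels, did not pass. The gene that rose was Erg (0.43), which is also transcribed in joint cartilage. Without 10 µM or control replicate 3, 7 of the list were called lower. None of 9 erythroid genes was called by edgeR or DESeq2 (1 had an unadjusted p under 0.05), and the summed erythroid level overlapped between the groups (2023 to 3480 CPM in the controls, 2078 to 3626 CPM with 10 µM).

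Some ectodermal genes were called lower, with a large spread among the controls. Of 25 epidermal genes 7 fell and none rose (3 fell without the block, and 4 without replicate 3 or 4 of either group), with a median of -0.73. Their sums were 3944, 2580, 4963 and 2286 CPM in controls 1 to 4 and 2070, 1828, 2236 and 1427 CPM with 10 µM. Krt5, the keratin of the basal layer (chr15:101707070-101712891, minus strand), lay at 938, 509, 833 and 536 CPM in the controls and 329.5, 277, 342 and 231 CPM with 10 µM (-1.21, SE 0.12, adjusted p = 5.8e-05). Its basal partner Krt14 did not pass (373, 462, 672 and 418 against 520.4, 445, 491 and 377 CPM, -0.03). Grhl3, a regulator of the skin barrier, fell by 1.49. Krt1, the keratin of cells that have left the basal layer, lay at 599.5, 242, 883 and 157 CPM in the controls and 20.2, 63.4, 102 and 33.1 CPM with 10 µM and did not pass (-2.98, adjusted p = 0.124).

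Several of the largest falls of the whole comparison were in genes of maturing ectoderm, with a large spread among the controls. Controls 1 and 3 were the higher ones for Krt84, Dsc1 and Asprv1, and control 3 alone stood apart for Calm4 (35.31 CPM). Krt84, a hair and nail keratin, lay at 19.1, 0.71, 19 and 1.3 CPM in the controls and had no read in the 4 treated libraries. The pooled control level of 9.85 CPM was 229-fold higher than 3 counts over the treated group would give. That pooled level rests mainly on controls 1 and 3 and leaves out the spread among libraries. Dsc1, a desmosomal cadherin of upper layers, lay at 4.21, 1.26, 11 and 0.901 CPM in the controls and 0, 0, 0.733 and 0.127 CPM with 10 µM, and Asprv1, a skin protease, at 25.3, 16.6, 91.7 and 9.06 CPM and 1.16, 2.19, 8.24 and 1.15 CPM. Calm4 (-4.18), a calmodulin of differentiating skin, Krt35 (-6.17), a hair keratin, and Muc15 (-3.69), a membrane mucin, were also called lower. Without the block, Krt84, Dsc1, Asprv1, Calm4 and Muc15 had adjusted p-values of 0.213, 0.098, 0.135, 0.149 and 0.0524, and only Krt35 of the 6 was still called. Keratin genes are close relatives and may share reads.

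Of 24 genes of the contractile apparatus 1 rose and 1 fell (8.33%, against 10.6% of all genes), and the summed level overlapped between the groups (3859 to 5784 CPM in the controls, 3881 to 4996 CPM with 10 µM). Of 16 myogenic regulators 1 rose and 3 fell (25%), with a median of 0.06. Of 15 Schwann cell and melanoblast genes 1 rose and 2 fell (20%), among them Dct, a melanin enzyme of melanoblasts (1.7, 1.36, 2 and 1.35 against 0, 0.225, 0.183 and 0.254 CPM, -3.28, adjusted p = 0.00538). Of 9 genes of axons and neurons 2 rose (22.2%), with the neurofilament gene Nefm at 2.92, 6.22, 6.14 and 5.21 CPM in the controls and 12.3, 14.7, 10.7 and 11.8 CPM with 10 µM (1.32, adjusted p = 0.00116). Among genes outside the lists, the neuropeptide gene Adcyap1 had the largest rise by fold under the naming rule (0.819, 0.328, 0.409 and 0.651 against 3.42, 3.71, 5.56 and 5.79 CPM, 3.08). That rule ranks called genes without overlap and with at least 50 counts on average in the higher group. Clic6, a chloride channel relative, was among the largest falls (4.8, 6.12, 7.32 and 8.71 against 0.653, 0.225, 0.366 and 1.27 CPM, -3.49). Ptgs2, the inducible cyclooxygenase, rose by 2.46 from a low level, and Gpnmb, a membrane glycoprotein, by 2.03 (24.4, 23.7, 13.6 and 15.1 against 112, 95.4, 42.1 and 69 CPM).

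**Figure D3:**
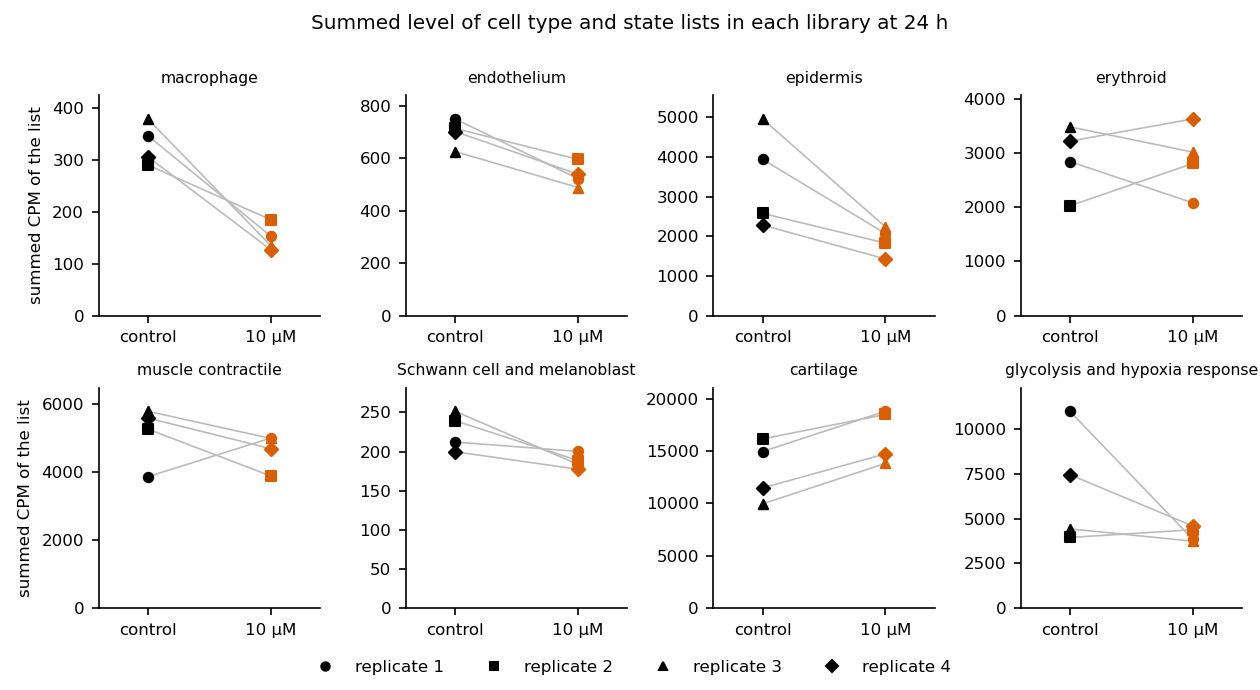
Each panel shows the summed CPM (y axis, from 0) of the tested genes of 1 list in the 4 control (black) and the 4 10 µM (orange) libraries at 24 h. Symbols stand for replicates and lines join equal numbers. The macrophage, endothelial and epidermal sums do not overlap between the groups, the epidermal ones narrowly (lowest control 2286 CPM, highest with 10 µM 2236 CPM). The erythroid, contractile, Schwann cell and melanoblast, and cartilage sums overlap. The glycolysis and hypoxia sum is high in controls 1 and 4 only.

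In the skeleton, 11 of 25 cartilage genes rose and none fell (median 0.34). This count was 4 without the block, 3 without replicate 3 and 5 without replicate 4 of either group, though 23 of the 25 fitted changes were upward. Col2a1, the main cartilage collagen, lay at 6743, 6563, 4097 and 4652 CPM in the controls and 8519, 8183, 6154 and 6454 CPM with 10 µM (0.44, adjusted p = 0.0401), and lost its call without replicate 3 or 4 of either group (adjusted p up to 0.296). The groups overlapped, and replicates 1 and 2 were the higher ones in both. Susd5, a cartilage surface protein, lay at 101, 137, 107 and 114 CPM in the controls and 189, 199.9, 162 and 175 CPM with 10 µM (0.68, SE 0.077, adjusted p = 0.000109), with no overlap. Cytl1, a secreted cartilage protein, rose by 0.63 and the growth factor receptor gene Fgfr3 by 0.49, while Sox9, the master transcription factor of chondrocytes, missed the threshold (0.29, adjusted p = 0.102).

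Among 24 genes of hypertrophic chondrocytes and osteoblasts 4 rose and 6 fell (median -0.12), and 2 fell without replicate 3 or 4 of either group. Runx3 and Runx2, which drive chondrocyte maturation, fell by 1.88 and 0.84. Runx3 lay at 58.6, 34.9, 38.4 and 38.1 CPM in the controls and 14, 11.9, 10.1 and 9.22 CPM with 10 µM, and Runx2 at 54.8, 61, 42.1 and 47.3 CPM and 32, 34.7, 26.4 and 21 CPM. Neither overlapped between groups. Pth1r, the receptor that keeps chondrocytes from maturing, rose (170.4, 164, 153 and 147 against 235, 258, 221 and 229.6 CPM, 0.59). Mmp13, the collagenase of hypertrophic cartilage, lay at 1.17, 1.26, 0.256 and 0.501 CPM in the controls and 8.59, 10.9, 0.733 and 2.35 CPM with 10 µM (2.62, adjusted p = 0.000382, and 0.0845 without the block), with replicates 1 and 2 the highest in both groups. Col10a1, the collagen of that tissue, followed the same split of replicates (149, 134, 24.4 and 12.8 against 141, 167, 46.8 and 35.6 CPM) and did not pass (0.63, adjusted p = 0.319).

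Of 15 joint genes 5 rose and 2 fell, and none fell without replicate 3 or 4 of either group. Gdf5, an early marker of the joint interzone, lay at 34.5, 46, 55.8 and 49 CPM in the controls and 67.8, 82.7, 65.2 and 69.7 CPM with 10 µM (0.65, adjusted p = 0.00418). Its treated libraries were all above the controls. The ligand gene Wnt16 rose by 1.51 and Sfrp2, a secreted Wnt antagonist, by 0.84. Of 27 matrix proteases and inhibitors 5 rose and none fell (18.5%, against 10.6% of all genes). The count was 2 without the block and 3 without 10 µM replicate 3. The inhibitor Timp2 lay at 375, 406, 359.7 and 404 CPM in the controls and 570.3, 600.3, 496 and 524 CPM with 10 µM (0.52). Pcsk6, a convertase that cleaves growth factor precursors (chr7:65861734-66050340, plus strand), was the only called gene of 8 convertases and lay at 84.7, 83.8, 69.8 and 67.2 CPM in the controls and 183, 197, 153 and 154 CPM with 10 µM (1.18, SE 0.079, adjusted p = 1.39e-06). Every treated library was far above the highest control. Of 29 genes of glycosaminoglycan synthesis 9 rose and 2 fell (4 rose without 10 µM replicate 3, and 5 without control replicate 3). Of 27 integrins and cadherins 10 rose and 1 fell (4 rose without the block, and 4 or 5 without replicate 3 or 4 of either group). Bcan, which codes for a proteoglycan best known from brain, rose by 1.96. Calu, a calcium-binding protein of the secretory pathway, had the largest rise in mean CPM by the naming rule (600, 639, 569 and 657 against 866, 860.5, 846 and 861 CPM, 0.49).

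Of 31 Hox genes 1 rose and 1 fell (6.45%, against 10.6% of all genes). Of 35 genes of the primary cilium, the organelle in which hedgehog signals are processed, none was called by edgeR or DESeq2 (2 had an unadjusted p under 0.05, and fitted changes lay between -0.20 and 0.29). Of 30 further limb patterning genes 2 rose and 4 fell (20%). Of 12 forkhead genes of mesenchyme 2 rose and 2 fell (33.3%, median -0.03). The 2 that fell were Foxc2 and Foxd2. Foxc2 lay at 32.6, 36.1, 27.4 and 26.4 CPM in the controls and 15.7, 14.8, 12.8 and 16.1 CPM with 10 µM (-1.02, SE 0.12, adjusted p = 0.000169), and Foxd2 fell by 1.16. Both were lower in all treated libraries than in any control.

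Within the hedgehog list 6 of 20 genes rose and 4 fell (4 rose without the block, and 3 without replicate 3 of either group). Ptch1, the receptor gene that the pathway itself induces, lay at 93.2, 91.3, 64.7 and 74.2 CPM in the controls and 20.4, 22.6, 20.9 and 24 CPM with 10 µM (-1.85, SE 0.11). Gli1 lay at 97.9, 138, 95.2 and 91.8 CPM in the controls and 2.76, 2.47, 0.122 and 1.46 CPM with 10 µM (-5.95, SE 0.50, adjusted p = 0.0104). Replicate 3 with 10 µM was lowest. The adjusted p of Gli1 was up to 0.111 without replicate 2 or 4 of either group, and 0.000982 with all libraries but without the block. The ligand gene Ihh lay at 26.9, 49.1, 35.6 and 35.5 CPM in the controls and 144, 148, 119 and 111 CPM with 10 µM (1.86, SE 0.11). The surface co-receptor Cdon rose by 0.65 and the secreted protein gene Scube3 by 0.61, while Smo, the transducer, overlapped between the groups (249, 286, 276 and 288 CPM in the controls, 249, 274, 266 and 267 CPM with 10 µM, -0.04). The letters GACCACCCA (or TGGGTGGTC), the consensus bound by Gli factors, occurred in none of the 7 promoters with an entry of called hedgehog genes, and in 0.198% of promoters of tested genes, which says only that these letters are not in those windows.

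In the BMP list 6 of 31 genes rose and 2 fell (25.8% called, against 10.6% of all genes). The count of rises was 5 without the block and lay between 4 and 10 without 1 library. It was 10 without replicate 1 of either group. The ligand Bmp7 lay at 89.9, 80.1, 82.1 and 84.8 CPM in the controls and 41.1, 47.6, 44.6 and 48.4 CPM with 10 µM (-0.88, SE 0.096, adjusted p = 8.72e-05), and the antagonist Grem1 rose (31.2, 26.4, 32 and 37.4 against 46.8, 39.1, 46.4 and 56.4 CPM, 0.58). Of 10 feedback targets of Wnt signalling 5 fell and none rose (1 without the block, and 2 without replicate 3 of either group), with the transcription factor gene Tcf7 at -0.84. Among 46 Wnt ligands, receptors and antagonists 10 rose and 8 fell (6 and 3 without replicate 3, 15 and 7 without replicate 1 of either group), and Notum, which inactivates Wnt proteins, fell by 1.37. Of 19 Notch genes 4 fell and none rose (21.05%, against 10.6% of all genes), but none was called without 10 µM or control replicate 3. In the retinoic acid list 2 of 15 genes rose and 4 fell. Cyp26a1, which degrades retinoic acid, fell by 2.4 (5.38, 3.06, 2.56 and 1.95 against 0.904, 0.674, 0.305 and 0.509 CPM), and Aldh1a2, which makes it, rose by 0.98 (7.9, 12.7, 10.2 and 16.3 against 13.4, 22.4, 16.8 and 45.9 CPM), though with an adjusted p = 0.174 without the block. Igfbp3, a binding protein of insulin-like growth factors, fell by 0.63.

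**Figure D4:**
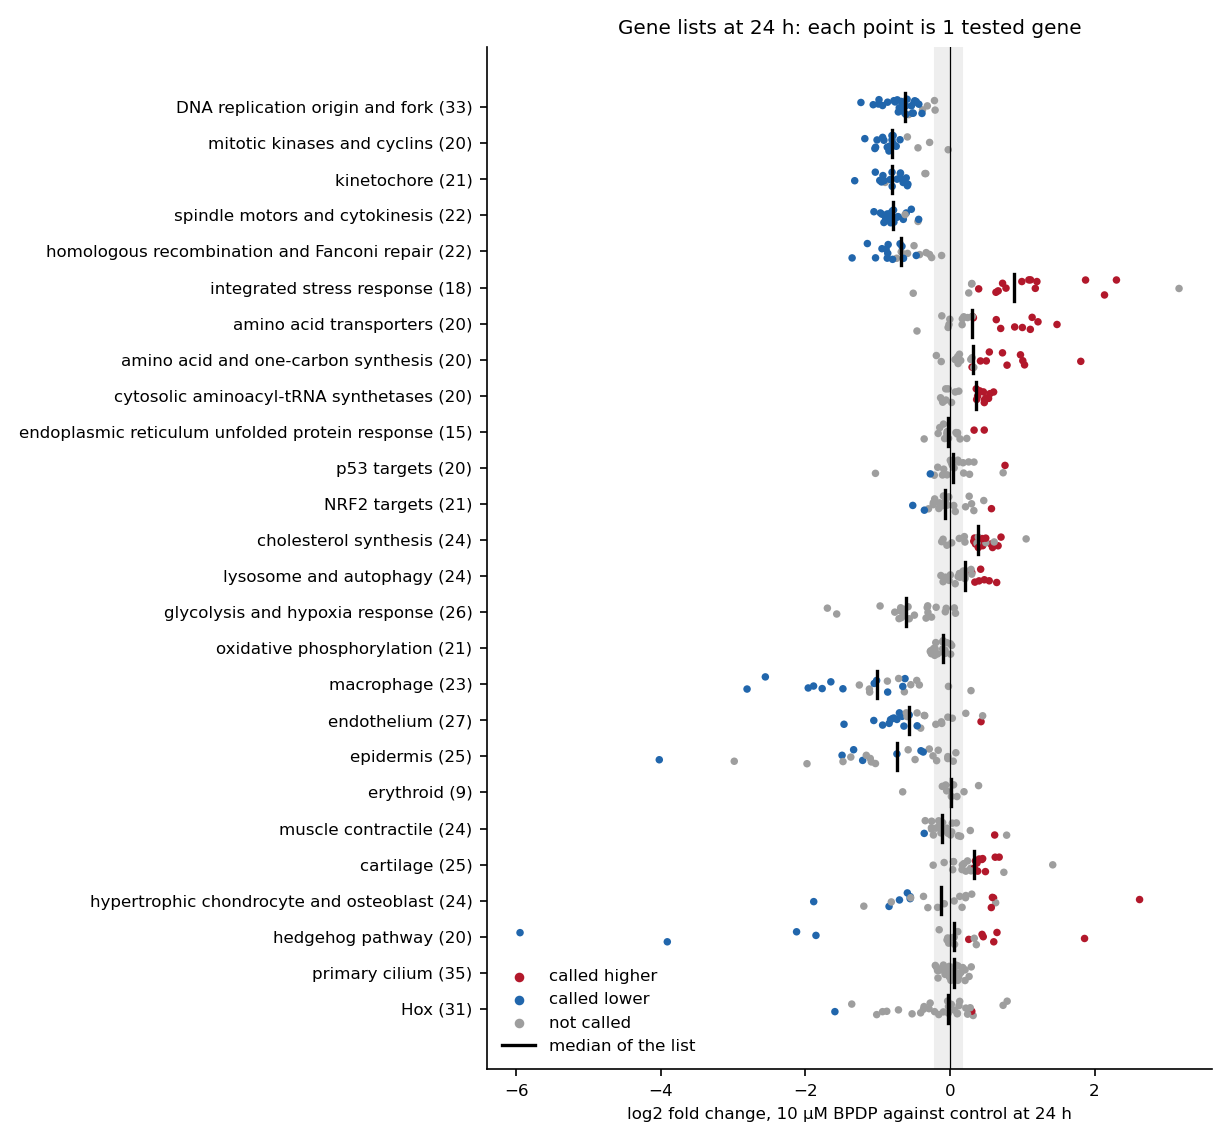
Each row is 1 gene list with its number of tested genes, and each point is 1 gene at its fitted log2 fold change (x axis) of 10 µM BPDP against control at 24 h. Red points were called higher, blue lower and grey not, black bars are list medians, and the grey band holds the middle quartiles of all tested genes (-0.204 to 0.164). The medians of the 5 division lists shown (replication, mitotic kinases, kinetochore, spindle and recombination) lie left of the band, that of the integrated stress response to its right, and those of the cilium and Hox lists inside it.

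Dose was compared within the 12 libraries of 24 h, by a contrast of 10 µM against 1 µM with the replicate block. Of 16002 genes 373 were called (2.33%), 124 higher and 249 lower with 10 µM. DESeq2 with the block called 743, and edgeR without the block 161. Without 1 library the count was 124, 74 and 156 for 10 µM replicates 1, 3 and 4. It was 106, 218 and 204 for 1 µM replicates 1, 3 and 4, and 669 and 240 for control replicates 1 and 4. Against the shared controls, 1 µM alone gave 16 called genes of 15578. Some amino acid genes differed between doses. Higher with 10 µM than with 1 µM were 6 of 20 transporters, 3 of 20 synthesis genes and 6 of 20 synthetases. Without 10 µM replicate 1 or 3 these counts were 6, 1 and 0. Slc7a5 lay at 102, 106, 102 and 119.5 CPM with 1 µM, within the range of the controls, and the contrast was 1.23 (adjusted p = 0.000286). Slc7a3 (1.66), Slc3a2 (1.25), Slc7a1 (0.99), Slc1a4 (0.92), Aldh1l2 (1.31), Chac1 (1.56) and Atf5 (1.11) were likewise higher at 10 µM than at 1 µM. In the integrated stress response list 12 of 18 genes were higher with 10 µM than with 1 µM and none was lower (5 without 10 µM replicate 1 or 3 or 1 µM replicate 1). Its median change against control was -0.05 at 1 µM and 0.89 at 10 µM.

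Macrophage genes also differed between doses. Csf1r lay at 33.1, 20.3, 25.6 and 17.5 CPM with 1 µM, and the contrast of 10 µM against 1 µM was -1.67 (adjusted p = 0.00104). C1qa (-2.45) and Lyz2 (-1.74) were also lower at 10 µM than at 1 µM. In that list 9 of 23 genes were lower with 10 µM than with 1 µM (6 without 10 µM replicate 3 or 4 or 1 µM replicate 1). The skin genes Asprv1 (-2.99), Calm4 (-3.32), Dsc1 (-4.24) and Muc15 (-3.06), and the melanoblast gene Dct (-3.59), also differed between doses. Division genes had smaller fitted changes at 1 µM than at 10 µM. The median of the spindle list against control was -0.38 at 1 µM and -0.79 at 10 µM, and 5 of its 22 genes differed between doses, with Tpx2 at 56.8, 41.4, 58.3 and 57.3 CPM at 1 µM (contrast -0.62, adjusted p = 0.00152). Plk1 (-0.78), Rrm2 (-0.75) and Tyms (-0.83) differed as well. Leaving out 10 µM replicate 1 or 3 left 1 spindle gene called.

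For another set of genes no difference between doses was called, while 1 µM had values near those of 10 µM. Pcsk6 lay at 169, 162, 151 and 151 CPM with 1 µM, above every control (1 µM against control 1.04, adjusted p = 0.00112; contrast between doses 0.14, adjusted p = 0.383). Runx3 lay at 13.6, 9.34, 9.03 and 8.79 CPM with 1 µM (-2.07 against control, 0.19 between doses) and Foxc2 at 17.9, 12.6, 13.4 and 16.1 CPM (-1.04 and 0.02). Ptch1 (-1.57 at 1 µM against -1.85 at 10 µM), Ihh (1.51 against 1.86), Runx2 (-0.76 against -0.84) and Bcl2 (-1.02 against -1.4) had contrasts between doses that did not pass (adjusted p = 0.275, 0.107, 0.801 and 0.118). A contrast that does not pass does not show that the doses act alike. Of the 20 hedgehog genes 2 were called lower at 10 µM than at 1 µM, among them Gli1, which lay at 33.9, 12.5, 9.88 and 11.4 CPM with 1 µM (contrast -3.23, adjusted p = 0.028). Its call was lost in 7 of the 12 fits without 1 library (adjusted p up to 0.102).

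Time was compared by testing whether the effect of 10 µM at 24 h differed from its effect at 3 h, over 16 libraries with a block within each time. Of 16356 genes 591 (3.61%) were called, 240 with a more positive and 351 with a more negative effect at 24 h, where an effect is a log2 fold change against the control of the same time. Without the block 375 were called. Leaving out 10 µM or control replicate 3 or 4 at 3 h gave between 337 and 347 genes. Division genes were among them, with 20 of 22 spindle genes, 16 of 20 mitotic kinases and cyclins and 19 of 33 replication genes at a more negative effect at 24 h (for replication, 11 without 10 µM replicate 3 or 4 or control replicate 3 at 3 h). Tpx2 had a log2 fold change of 0.02 at 3 h and -0.94 at 24 h (difference -0.96, adjusted p = 0.000111), and Ccnd1 of -0.39 and -1.4 (-1.0). The stress response genes Chac1 (0.36 at 3 h, difference 1.51), Atf5 (0.1, 0.89) and Slc7a5 (0.24, 0.98) had a more positive effect at 24 h than at 3 h. So did the hedgehog ligand Ihh (-0.1, 1.96) and Pcsk6 (-0.16, 1.34), while Ptch1 (-0.12, -1.73) and Bcl2 (-0.27, -1.13) had a more negative one. Cytl1 went from -0.6 at 3 h to 0.63 at 24 h, and its difference of 1.23 passed (adjusted p = 0.000312).

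The macrophage gene Csf1r (-0.22 at 3 h, difference -1.67) and the vessel genes Cdh5 (-0.07, -0.7) and Flt1 (-0.23, -1.24) had a more negative effect at 24 h. Runx3 was called lower at both times (-0.9 at 3 h) and its effect was larger at 24 h (-0.99, adjusted p = 0.00554). Foxc2 was also called lower at both times (-0.55 and -1.02), and the difference between times did not pass (-0.47, adjusted p = 0.137).

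**Figure D5:**
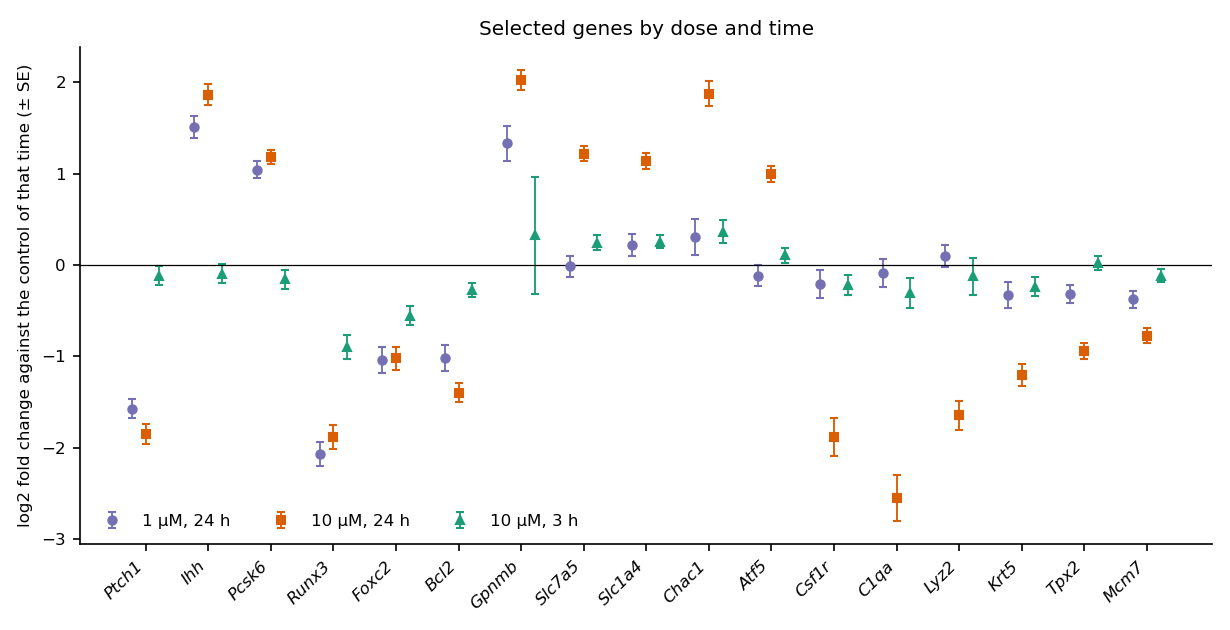
For 17 genes the fitted log2 fold change against the control of the same time (y axis, ± 1 SE) is shown for 1 µM at 24 h (circles), 10 µM at 24 h (squares) and 10 µM at 3 h (triangles). From Slc7a5 to Krt5 the circles lie closer to 0 than the squares, while for Ihh, Pcsk6, Runx3 and Foxc2 the circles lie near the squares. Both values at 24 h share the same controls.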

How the data were processed

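Poly-A RNA from 24 cultured forelimb bud libraries, 6 groups of 4, was sequenced. Per the submitters' processing notes, CASAVA 1.8, STAR 2.5, HTSeq 0.6.1 and DESeq2 were used with the mm10 build. Whether the counting used strand is not given in the sources used here. The authors deposited whole-number read counts per gene, not normalized, in 5 tables of pairwise comparisons. The tables also hold the authors' log2 fold changes and p-values, which were used only for the comparison of calls at the end of this section. In the tables' shared libraries 0 of 375696 counts differed. FPKM and mean columns (50) were not used, and 25 symbols stand on more than 1 gene ID.

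CPM are counts divided by the library total and scaled to 1000000. Tests were run in R 4.3.3 with edgeR 4.0.16 (TMM scaling, filterByExpr with a minimum count of 10 and a minimum total of 15, robust quasi-likelihood F test, replicate number as a block, Benjamini-Hochberg adjusted p under 0.05). The script was tested on simulated data. The standard error of a log2 fold change is its size divided by the square root of F. DESeq2 1.42.0 served as an alternative, beside RLE scaling, other filters, no block, subsets of replicates and each library left out. Leaving out replicate 3, or replicates 1 and 4, of both groups was added after seeing the data.

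The replicate number was set as a block in the plan of the comparison, and the labels do not say what a number shares. Deviations from the group means of same-numbered treated and control libraries correlated at 0.14, 0.322, 0.361 and 0.247 for replicates 1 to 4. For treated replicates 2, 3 and 4 the same-numbered control gave the highest correlation. Treated replicate 1 correlated more highly with a control of another number, so these values do not show that each number marks a pair. The members and gene lists were chosen with earlier results of these data known. Named genes are the limb and hedgehog markers and a selection from a rule. For each list the rule takes up to 8 called genes by size of change and up to 4 not called. It also takes the 15 largest rises and falls by fold and the 10 largest by CPM. These are called genes without overlap, with a mean of 50 counts or more in the higher group. Predicted genes and pseudogenes were left out of that ranking. Atf4 is outside that rule, and a few genes it takes are not reported here. Promoters are from RefSeq (GRCm38.p6), matched by symbol. In the authors' deposited table for this pair, 1460 genes were called, 680 higher and 780 lower. Of these, 1449 were tested here and 1320 were also called here, all in the same direction.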

Additional observations from a re-analysis of the deposited data

Results flagged for a closer look

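Among 252 groups of 4 libraries checked for the genes of the text, 16 held 1 library far from the other 3 by Dixon's criterion, which sets the gap to the nearest library against the range. Chance gives about 1 in 20 groups. Control replicate 1 stood apart in 5 groups: low for Cdc6 (12.46 CPM) and Kif11 (33.35 CPM), and high for Slc3a2 (162.9 CPM), Lamp2 (239.9 CPM) and Runx3 (58.62 CPM). With 10 µM, replicate 3 stood apart for Flt1 (4.458 CPM), Tek (5.13 CPM), Calm4 (2.015 CPM) and Asprv1 (8.245 CPM). Replicate 2 with 10 µM did so for Rrm2 (24.45 CPM) and Wnt16 (12.14 CPM), and replicate 4 for Slc1a5 (30.2 CPM) and Grhl3 (5.787 CPM). Control replicate 2 stood apart for Gli1 (137.5 CPM), and control replicate 3 for Calm4 (35.31 CPM) and Cyp1a1 (19.91 CPM).

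By the test of the difference between times, the effect of 10 µM was more positive at 24 h than at 3 h for Ptgs2 by 3.54, Adcyap1 by 2.77, Ahrr by 2.38, the pseudokinase gene Trib3 by 2.04, Bcan by 2.04, the monooxygenase gene Cyp1b1 by 2.03, Ihh by 1.96 and Nefm by 1.78 on the log2 scale. It was more negative at 24 h for Krt84 (-11.2, a fitted value that depends on the prior count), Dsc1 (-5.92), Krt35 (-5.04), Gli1 (-5.03), Calm4 (-4.6), the enamel matrix gene Ambn (-4.53), Muc15 (-3.96) and Asprv1 (-3.13). Several of these calls ended in fits without 1 library: for Dsc1 in 13 of the 16 fits (adjusted p up to 0.232), Adcyap1 in 12 (up to 0.173), Ambn in 12 (up to 0.136), Trib3 in 8 (up to 0.0837), Ptgs2 in 5 (up to 0.15), Calm4 in 3 (up to 0.0853) and Bcan in 2 (up to 0.0594). For the other 9 genes the call held in all 16.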

How the results depend on the processing

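The 1645 genes called between 10 µM and control became 963 with no replicate block, 953 from replicates 3 and 4 only, 6 from replicates 1 and 2 only, 694 with pair 3 left out and 4 with pairs 1 and 4 left out; without 1 library the count ranged from 693 to 2131. The 373 genes called between the doses became 743 with DESeq2 and 161 with no replicate block, and ranged from 74 to 669 without 1 library. The 591 genes called between the times became 375 with no replicate block and ranged from 337 to 683 without 1 library. RLE scaling, no filter (2057 genes for the main comparison), a stricter filter, and the spread estimated over 12 libraries left the counts they were run for within 1.5 times, as did DESeq2 outside the dose contrast. Fits with 2 libraries a group were run without the block and have few residual degrees of freedom. The cause of these changes in count was not tested.

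Of the 103 called genes among 126 named, 9 lost the call without the block: Slc7a11, Krt84, Dsc1, Calm4, Asprv1, Muc15, Col2a1, Mmp13 and Aldh1a2. In the fits without 1 library 101 kept it in all 8, and the exceptions were Gli1 (adjusted p of 0.0591 to 0.111 without replicate 2 or 4 of either group) and Col2a1. No alternative reversed the direction of a called named gene. Some named genes that were not called changed sign between the fits without 1 library, such as Cyp1a1 (-0.48 to 0.39) and Mdm2 (-0.10 to 0.11). DESeq2 and RLE scaling each called all 103, replicates 3 and 4 alone 80, and replicates 1 and 2 alone 4.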
